A study of Mus musculus with 24 samples.

Results

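The partially ligated left carotid artery of the mouse was compared 48 h and 12 h after surgery, using 9 of the 18 samples (12 of the 24 arrays) in the series. The 48 h group held 6 left samples. The 12 h group held 3 left samples, each measured on 2 repeat arrays that were averaged. All mice were male C57Bl6, 6 to 8 weeks old, and all had been operated on: the left external carotid, internal carotid and occipital branches were tied and the superior thyroid artery was not tied, which gives low and oscillating flow in the left common carotid. The right carotid samples of the same times (6 at 48 h and 3 at 12 h) carry no ligature and are used here only to show where the left artery differs. RNA was obtained by flushing the intima, the inner lining of the vessel, with a lysis reagent, so the labels call the samples endothelium, and microRNAs (miRNAs) were read on an Illumina bead array of 655 probes. Sham-operated and unoperated mice are not among the groups, so flow, surgery and side of the body cannot be told apart.

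All 48 h signals come from 1 deposited table and all 12 h signals from another. Time and table therefore cannot be told apart in any value below, and the counts describe these tables. The labels do not say whether numbered samples are separate animals or pools. The p-values only set a difference between times, or tables, against the spread of these samples, and that spread may be technical.

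Mature miRNAs are short RNAs of about the length printed below. They guide Argonaute proteins to messenger RNAs, mostly through the seed, bases 2 to 8 from the 5′ end, and lower the output of those messages. In endothelium, miR-126 is the best known lineage miRNA and acts on VEGF signalling and on VCAM-1. The miR-17-92 cluster, miR-10a, miR-21, miR-92a, miR-101, miR-155 and mouse miR-712 have been linked to shear stress, and miR-143 and miR-145 mark the smooth muscle layer beneath.

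The sequences below belong to the miRNAs on which the results turn. They are written 5′ to 3′ as RNA, with the seed in capitals, and come from RefSeq (GRCm38.p6), except that miR-486, miR-23b and miR-684 come from the array's own annotation. The first set is of miRNAs that were higher at 48 h.
miR-200c: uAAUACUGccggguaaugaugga
miR-486: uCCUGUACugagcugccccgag
miR-223: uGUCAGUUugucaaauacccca
miR-210: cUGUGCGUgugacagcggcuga
miR-423-3p: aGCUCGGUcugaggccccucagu
miR-92a: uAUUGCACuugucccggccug

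The second set is of miRNAs that were lower at 48 h, 4 of them (miR-684, miR-101a, miR-155 and miR-291b-5p) detected in every 12 h sample and in no 48 h sample.
miR-126-3p: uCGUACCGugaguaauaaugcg
miR-10a: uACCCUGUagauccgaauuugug
miR-101a: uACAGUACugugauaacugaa
miR-155: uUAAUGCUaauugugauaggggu
miR-684: aGUUUUCCcuucaagucaa
miR-291b-5p: gAUCAAAGuggaggcccucucc

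The third set shows close paralogs, grouped by shared seed, some of whose probes changed by unlike amounts or in opposite directions between the times.
miR-99a: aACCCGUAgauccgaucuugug
miR-100: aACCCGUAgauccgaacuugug
miR-99b: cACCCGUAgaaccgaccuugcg
let-7e: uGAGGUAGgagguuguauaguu
let-7a: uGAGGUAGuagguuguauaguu
let-7b: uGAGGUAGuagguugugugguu
miR-23a: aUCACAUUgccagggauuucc
miR-23b: aUCACAUUgccagggauuacc

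Probes detected (detection p under 0.05) numbered 360 to 404 in the 48 h left samples and 394 to 421 in the 12 h left samples. The means were 377.7 ± 15.3 (SD, n = 6) and 405 ± 14.2 (SD, n = 3), and the difference of -27.3 gave a two-sided exact permutation p of 0.0714, where 0.0238 is the smallest possible. Without 48 h sample 2 the difference was -32.6 and the exact permutation p 0.0357. Without any other single sample that p rose, to 0.107 for each other 48 h sample and to 0.143 or 0.214 for the 12 h samples. Median raw signal was 162 to 498 in the 48 h samples, below the 576 to 800.5 of the 12 h samples, so the 48 h arrays were dimmer in their middle range. The brightest probe, in contrast, read 27805 to 31933 at 48 h and 22576 to 24414 at 12 h. Rank correlations over all probes were 0.779 to 0.851 among 48 h left arrays, 0.840 to 0.874 between different 12 h left samples, and 0.586 to 0.698 across the times. Repeat arrays at 12 h correlated at 0.996 to 0.998. Across the times in the right carotid the range was 0.629 to 0.785.

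Of 458 miRNAs tested in the left carotid, 200 (43.7%) passed the threshold (limma, Benjamini-Hochberg adjusted p under 0.05): 109 (23.8%) were higher and 91 (19.9%) lower at 48 h. By limma, 241 had an unadjusted p under 0.05, where 22.9 would be expected by chance. In 202 miRNAs (44.1%) the 48 h and 12 h samples did not overlap, with 48 h above in 104 (22.7%) and below in 98 (21.4%). The log2 changes of the 109 ran from 0.27 to 5.78 with a median of 1.68, and those of the 91 had a median of -2.77. Of the rises 16, and of the falls 35, were undetected on every array of 1 time, so their sizes are set partly by background. Only 73 of the rises and 34 of the falls were detected on every left array. The median change of all tested miRNAs depended on the scale: 0.21 after quantile normalization and -0.55 when each array was divided by its 75th percentile. With the second scaling 51 were higher and 140 lower, and 18 of the 109 rises turned negative. On 3 scales (quantile, 75th percentile and within-array percentile rank) 139 miRNAs (30.3% of those tested) were called the same way, 51 higher and 88 lower. Each rise named below that is not among the 51 is marked as such where its value is given.

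**Figure D1:**
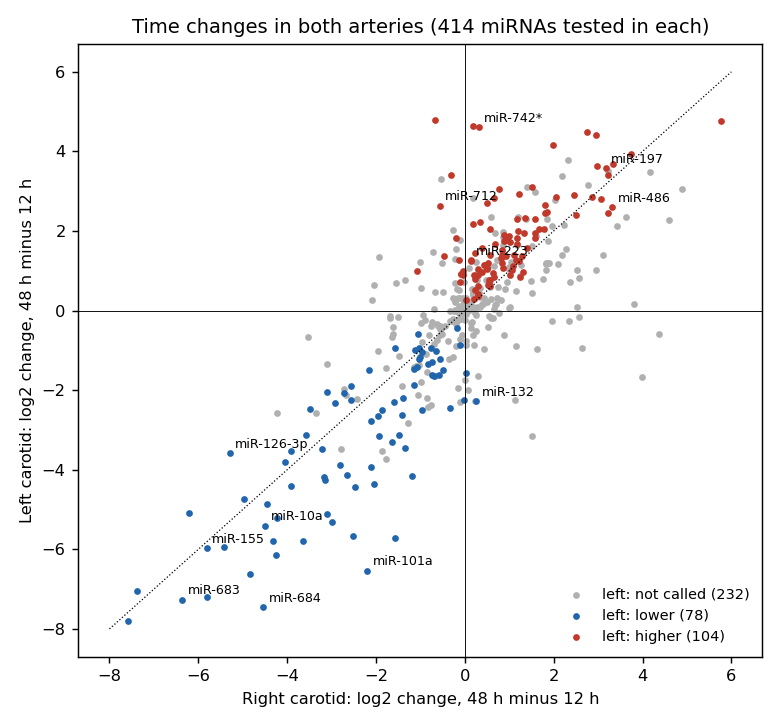
Each point is 1 of the 414 miRNAs tested in both arteries; the vertical axis is the log2 change (48 h minus 12 h) in the left carotid and the horizontal axis that in the right carotid. Red points (104) were higher and blue points (78) lower in the left carotid at 48 h, grey points (232) did not pass there, the dotted line marks equal changes, and most coloured points have the same sign in both arteries.

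In the unligated right carotid most of these miRNAs had a change of the same sign between the tables. There, 94 of 430 miRNAs (21.9%) passed, 54 higher (12.6%) and 40 lower (9.3%). Of the 104 left rises also tested on the right, 92 had the same sign and 37 were called higher there, which is 33.9% of the 109 left rises and 68.5% of the right rises. Of the 78 left falls tested on the right, 76 had the same sign and 30 were called lower, which is 33.0% of the left and 75% of the right falls. None of the left calls was called in the opposite direction on the right (limma, 0 of 104 and 0 of 78). A test of the difference itself, left change minus right change over all 4 groups, called 1 of 474 miRNAs (0.211%), with 53 at an unadjusted limma p under 0.05 against 23.7 expected by chance. The changes that follow are thus changes of the left carotid between these times and tables. For all but miR-291b-5p a difference from the right carotid was not established in that fit. The fit treated left and right samples as independent. The labels do not say whether same-numbered left and right samples come from the same mouse, and whether they deviate together was not tested. If they are paired, the fit can have missed differences. With the replicate number as a block the count was also 1. That block joined same-numbered samples of both arteries and both times, so it does not model pairing of left and right within a time.

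The exception was miR-291b-5p, from a cluster best known in embryonic stem cells (chr7:3219494-3219515, plus strand, GRCm38.p6). Its log2 signal was 6.18 to 6.82 at 48 h (median 6.50, detected in 0 of 6 samples), against 11.19, 10.93 and 11.10 at 12 h (detected in 3 of 3). It was at least 13.3-fold lower at 48 h. In the right carotid it was detected in no sample, with means of 6.30 ± 0.22 at 48 h (SD, n = 6) and 5.69 ± 0.08 at 12 h (SD, n = 3). The fitted difference of the time changes was -5.19 (limma adjusted p = 4.59e-09). Since only the left 12 h samples were above detection, its size is set partly by background, 0.61 of it by the shift between undetected right groups. Without single left 12 h samples the number of miRNAs passing this test was 4 (without sample 1), 9 (without sample 2) and 7 (without sample 3), with miR-291b-5p among them each time.

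Of 11 listed endothelial markers on the array, 9 were tested, of which 6 fell, 2 rose and 1 did not pass (over all tested miRNAs 19.9% fell and 23.8% rose), with a median log2 change of -1.88 against 0.21 over all tested miRNAs. Summed over the list, raw signal made up 2.30 to 3.67% of each 48 h array and 5.58 to 5.67% of each 12 h sample. Without any 1 of the 12 h samples 3 of the 9 fell. In the right carotid 4 of the 9 fell and 1 rose, with a median of -0.74. In bulk RNA, fewer cells of a type and less RNA per cell cannot be told apart.

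miR-126-3p, which restrains VCAM-1 and inhibitors of VEGF signalling in endothelium, lies with its partner strand within Egfl7 (chr2:26591402-26591423, plus strand). At 48 h its log2 signals were 12.61, 12.15 and 12.90 in samples 1 to 3 and 9.38, 9.11 and 9.14 in samples 4 to 6, against 14.36, 14.54 and 14.51 at 12 h. All 6 later samples lay below all 3 earlier ones, and the later samples fell into 2 sets of 3. The labels give no reason for that split. The log2 change was -3.59 ± 1.01 (SE; limma adjusted p = 0.0201), and it was -5.29 in the right carotid. Leaving out any 12 h sample ended the call (limma adjusted p 0.0545 to 0.0606).

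miR-126-5p, the other strand of the same hairpin, had the top signal of all 655 probes in each 12 h left sample. It had log2 signals of 12.66 to 13.94 at 48 h (median 13.40), against 14.67 in all 3 samples at 12 h, the ceiling that quantile normalization gives to the brightest probe. It fell by 1.30 on the log2 scale (SE 0.29, limma adjusted p = 0.00618). Its percentile rank within the array was 86.1 to 95.9 at 48 h and 100 at 12 h. In the 48 h left samples the brightest probe was miR-103 in all 6, at ranks of 90.5 to 94.2 at 12 h. Both strands of miR-126 thus moved down, and the 48 h and 12 h samples did not overlap for either strand.

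miR-10a, embedded in the HoxB cluster within Hoxb3 and known to restrain NF-kB signalling in endothelium, had the largest fall of the list. Its log2 signal was 7.33 to 8.96 at 48 h (median 7.84), against 13.17, 13.35 and 13.43 at 12 h. The log2 change was -5.41 ± 0.39 (SE; limma adjusted p = 5.89e-06) on the left and -4.49 on the right. Its paralog miR-10b, from the HoxD cluster, changed by -5.08 ± 1.56, with log2 signals of 5.40 to 11.06 at 48 h, and lost its call without any 12 h sample or 48 h sample 4 (limma adjusted p 0.0529 to 0.0828). miR-125b-5p and miR-221 were the other falls of the list, at -1.88 and -2.26. The 2 rises were in miR-100 (1.20 ± 0.08, limma adjusted p = 3.9e-06) and miR-222 (0.80 ± 0.24), of which miR-222 was not called with 75th percentile scaling.

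**Figure D2:**
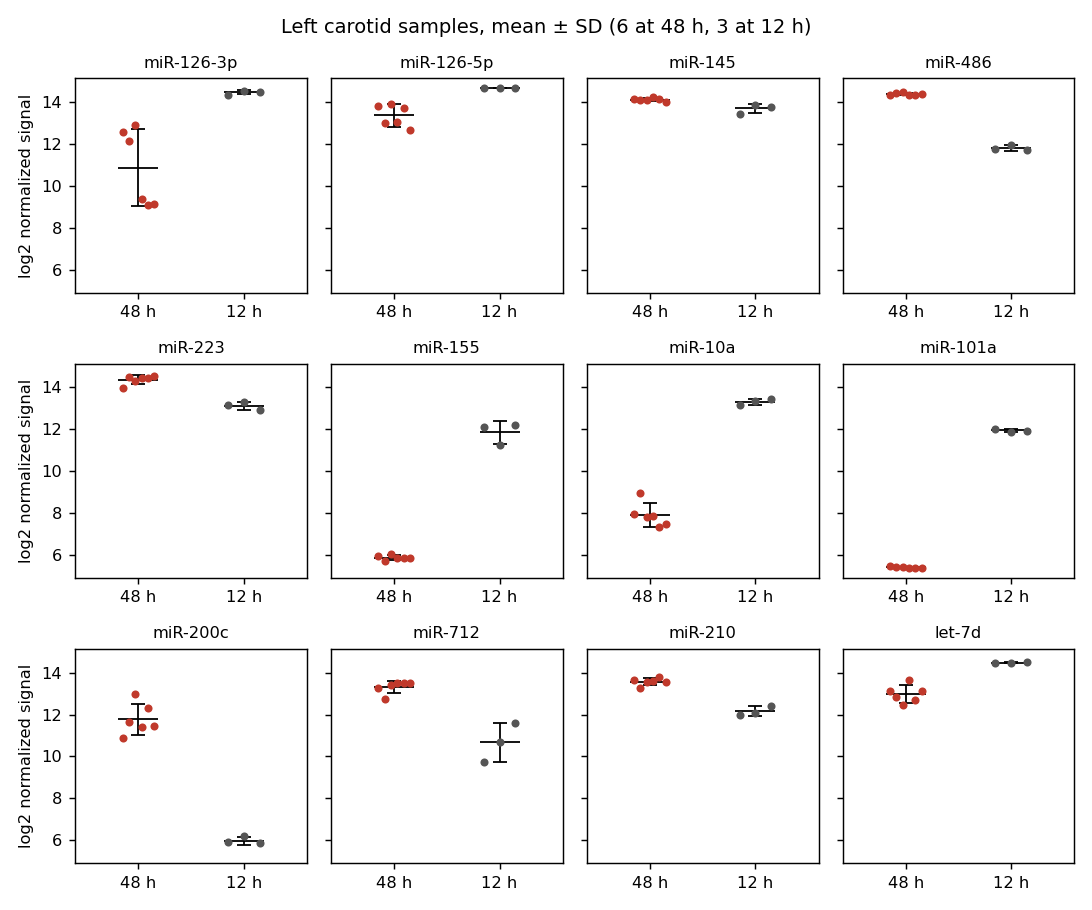
Each panel shows 1 miRNA, with the log2 normalized signal of each left carotid sample at 48 h (6 red points) and at 12 h (3 grey points) and the mean ± SD in black. miR-126-3p is split at 48 h into samples near 12 to 13 and near 9, while miR-155 and miR-101a lie near the floor of about 5 to 6 in all 6 samples.

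Markers of other cell types that a flushed intima can hold differed in their medians. The smooth muscle median was near the 0.21 of all tested miRNAs. The fibroblast median was -1.99, or -0.83 without 48 h sample 3, where the endothelial median was -1.63. Smooth muscle markers numbered 6 tested, 3 higher and 1 lower, where 23.8% of all tested miRNAs rose and 19.9% fell. Their median was 0.24 (0.12 without 12 h sample 1). With 75th percentile scaling 1 was higher and 1 lower, and the median was 0.01. The list made up 4.04 to 4.63% of raw signal at 48 h and 3.61 to 4.00% at 12 h. miR-145, which holds smooth muscle in its contractile state, had log2 signals of 14.03 to 14.24 at 48 h (median 14.12), against 13.47, 13.87 and 13.78 at 12 h. It rose by 0.42 ± 0.09 (SE, limma adjusted p = 0.00502), a rise not called with 75th percentile scaling (0.11, limma adjusted p = 0.473). miR-143, from the same cluster, changed by 0.20 ± 0.22 and did not pass. miR-26a fell by 0.43. miR-24 rose by 0.28 and miR-490 by 2.45. miR-490, detected on 2 of 6 arrays at 12 h and on 6 of 6 at 48 h, was among the miRNAs called on all 3 scales, and miR-24 was not.

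Of 4 tested erythroid markers 2 rose (miR-486 and miR-92a) and none fell (limma), where 23.8% of all tested miRNAs rose and 19.9% fell. The median was 1.09. miR-486, abundant in red cells and also in striated muscle, had log2 signals of 14.36 to 14.48 at 48 h (median 14.38), against 11.76, 11.96 and 11.70 at 12 h. It rose by 2.59 ± 0.08 on the left (SE, limma adjusted p = 2.1e-08) and by 3.32 on the right. miR-451, the most red-cell-restricted of the list, was detected in all samples and changed by 1.41 ± 1.16 on the left (limma adjusted p = 0.352), with values of 8.79 to 13.78 at 48 h that enclosed those at 12 h, and by 3.10 on the right, where it passed. miR-144, its cluster partner, was detected in none of the 18 samples. The list's share of raw signal was 3.30 to 4.35% at 48 h and 1.52 to 1.84% at 12 h. Its part in the other changes was not tested.

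Among 9 tested leukocyte miRNAs, 4 rose and 2 fell, where 23.8% of all tested miRNAs rose and 19.9% fell. The median was 0.02 and, with single samples left out, ran from -0.17 (without 48 h sample 2) to 0.69 (without 12 h sample 1). With 75th percentile scaling 3 were higher and 3 lower, and the median was -1.70. miR-223, a miRNA of neutrophils and other myeloid cells, had log2 signals of 13.99 to 14.55 at 48 h (median 14.45), against 13.17, 13.29 and 12.91 at 12 h. It rose by 1.25 ± 0.13 on the left (SE, limma adjusted p = 7.84e-05), without overlap, and changed by 0.13 on the right (limma adjusted p = 0.93). The difference of the 2 changes, 1.12, did not pass (limma adjusted p = 0.668). The pan-leukocyte miR-142-3p changed by 0.02 ± 0.54, with 7.41 to 8.89 at 48 h against 9.28, 6.90 and 7.53 at 12 h. miR-150, of mature lymphocytes, fell by 1.5004 ± 0.29 (limma adjusted p = 0.00281). miR-181a rose by 0.77, miR-342-3p by 0.91, and miR-147, undetected at 12 h, was at least 3.34-fold higher. miR-342-3p was not called with 75th percentile scaling and was lost without 12 h sample 1 or 2 or 48 h sample 2, 4, 5 or 6 (limma adjusted p 0.0681 to 0.153).

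miR-155, made from Mir155hg (chr16:84714143-84714165, plus strand) and induced in activated leukocytes and endothelium, had log2 signals of 5.72 to 6.04 at 48 h (median 5.87), against 12.11, 11.24 and 12.23 at 12 h. It was detected in 0 of 6 later and 3 of 3 earlier samples and was at least 22.9-fold lower at 48 h (limma adjusted p = 2.67e-07). In the right carotid it was detected on 1 of 6 arrays at 48 h and on 6 of 6 at 12 h and was also called lower. The inflammatory list of 10 tested was divided, with 3 higher (miR-147, miR-21 and miR-223) and 3 lower (miR-155, miR-132 and miR-125b-5p). Over all tested miRNAs 23.8% rose and 19.9% fell. With 75th percentile scaling 2 of the 10 were higher and 3 lower. miR-146a, a feedback inhibitor of NF-kB signalling, changed by -0.74 ± 0.99 with overlapping samples, and miR-146b by 2.61 ± 1.42. Neither passed.

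Remaining marker lists moved in no single direction, where 23.8% of all tested miRNAs rose and 19.9% fell. Of 6 tested striated muscle markers 3 rose (miR-486, miR-133b and miR-208b, of which miR-133b and miR-208b were not called with 75th percentile scaling, where miR-208b was at -0.15) and miR-206 fell. miR-206 was detected in 12 h samples 1 and 2 alone and could not be tested without either. miR-1, the dominant miRNA of striated muscle, was detected in 1 left sample of each time and was not tested. Of 9 fibroblast and mesenchymal markers, miR-214 (1.13) and miR-199a-5p (1.14, not called with 75th percentile scaling, and lost without 12 h sample 1 or 3 or 48 h sample 5 or 6, limma adjusted p 0.0503 to 0.106) rose and miR-140 (-3.93) and miR-29c (-3.15) fell, and without 48 h sample 3 the falls were 4. That list made up 2.29 to 3.36% of raw signal at 48 h and 3.73 to 4.49% at 12 h. Its part in the change of the endothelial list was not tested. None of 4 tested liver markers passed by limma, and 0 had an unadjusted p under 0.05. Of 8 neural markers 1 rose and 2 fell: miR-124 was at least 2.34-fold higher at 48 h, miR-129-3p was at least 20.2-fold lower and miR-132 fell by 2.28.

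**Figure D3:**
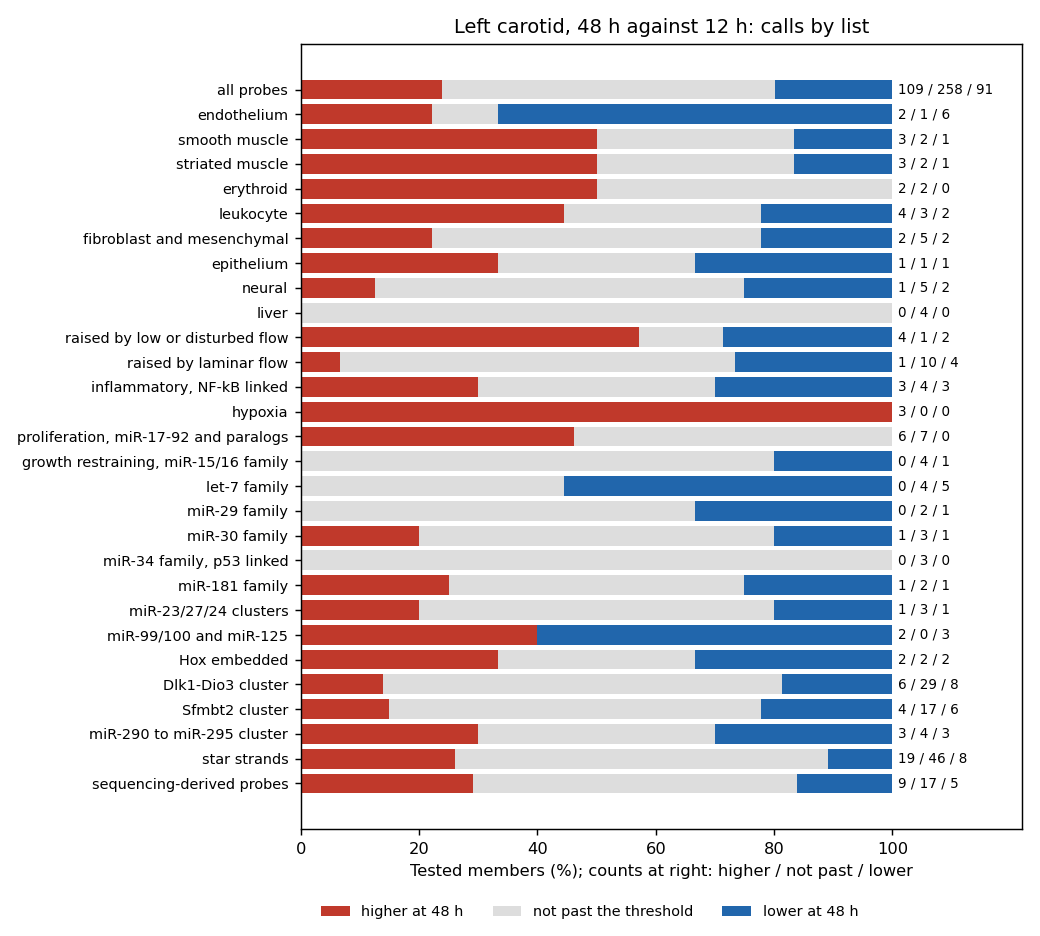
Bars show, for each list with at least 3 tested members and for all probes, the percent of tested members higher at 48 h (red), not past the threshold (grey) and lower (blue) in the left carotid, with the counts in that order at the right. Over all probes 109 were higher and 91 lower; the endothelium row has 2 higher and 6 lower of 9, the let-7 row 0 higher and 5 lower of 9 and the miR-17-92 row 6 higher and 0 lower of 13.

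miRNAs tied to flow in earlier work were next examined as 2 lists. Of 7 tested miRNAs reported as raised by low or disturbed flow, 4 rose (miR-712, miR-200c, miR-92a and miR-21) and 2 fell (miR-155 and miR-204), with a median of 0.27. That median was 0.45 to 0.81 without 12 h sample 2 or 3 or 48 h sample 1, 2 or 6. Over all tested miRNAs 23.8% rose and 19.9% fell. With 75th percentile scaling 3 of the 7 were higher and 2 lower. In the right carotid 1 of 6 tested members rose and 1 fell, with a median of -0.28. Some of these reports used the same artery model, so the list is not independent of it. Of 15 tested miRNAs reported as raised by laminar flow, 1 rose (miR-145, as above not called with 75th percentile scaling), 4 fell (miR-10a, miR-101a and both strands of miR-126) and 10 did not pass, with a median of -1.30 on the left and -0.52 on the right. Falls over all tested miRNAs were 19.9%. Without 48 h sample 3 the falls were 7 and the left median was -0.66, and without 12 h sample 2 the median was -0.85.

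miR-712, a murine miRNA reported to come from pre-ribosomal RNA and to target the metalloproteinase inhibitor TIMP3, had log2 signals of 12.73 to 13.51 at 48 h (median 13.45), against 9.76, 10.67 and 11.60 at 12 h. The 48 h samples all lay above the 12 h samples. It rose by 2.63 ± 0.37 (SE, limma adjusted p = 0.000472) on the left and changed by -0.57 on the right, where samples were spread widely (9.41 ± 3.24 at 48 h, SD, n = 6; 9.98 ± 3.76 at 12 h, SD, n = 3). The difference of 3.20 did not pass (limma adjusted p = 0.627). Its partner strand miR-712* stood at 0.89 on the quantile scale, where it passed, and at -0.77 with 75th percentile scaling, and the call was lost without 12 h sample 3 (limma adjusted p = 0.0591).

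miR-92a, which in endothelium represses KLF2 and KLF4, had log2 signals of 14.20 to 14.34 at 48 h (median 14.29), against 13.40, 13.55 and 13.61 at 12 h. It rose by 0.76 ± 0.06 (limma adjusted p = 9.59e-06), and by 0.56 on the right. miR-21, an anti-apoptotic miRNA of the vessel wall, rose by 0.27 ± 0.06 on the left (limma adjusted p = 0.00444, not called with 75th percentile scaling) and changed by 0.02 on the right. Its minor strand miR-21* was detected in all 6 later samples and in no earlier one, at least 6.41-fold higher at 48 h, and also was not called with 75th percentile scaling (1.44, limma adjusted p = 0.0748). miR-200c, a repressor of ZEB1 and ZEB2 best known from epithelium, had log2 signals of 10.87 to 12.98 at 48 h (median 11.53), against 5.90, 6.21 and 5.86 at 12 h. It was at least 33.8-fold higher at 48 h (limma adjusted p = 1.26e-05), while on the right it was detected in 2 of 6 samples at 48 h and 0 of 3 at 12 h. The other epithelial markers did not follow it: miR-200b fell by 1.22, miR-203 did not pass, and miR-141, miR-200a, miR-205 and miR-429 were detected in at most 2 of the 6 samples at 48 h.

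miR-101a, which targets the methyltransferase EZH2, was read by 2 probes. The first had log2 signals of 5.39 to 5.46 at 48 h (median 5.41), against 12.03, 11.88 and 11.93 at 12 h, and was at least 24.4-fold lower at 48 h (limma adjusted p = 9.91e-09). In the right carotid its fitted change was -2.19 (limma adjusted p = 0.385), with SDs of 2.55 at 48 h (n = 6) and 2.69 at 12 h (n = 3). The difference of -4.34 did not pass (limma adjusted p = 0.35). The second, miR-101a:9.1, had 7.47 to 9.35 at 48 h, against 12.28, 12.50 and 12.32 at 12 h, and fell by 4.35 ± 0.43. Both probes were called lower on the left, and since the first was undetected at 48 h the sizes of the 2 falls cannot be compared.

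All 3 tested hypoxia-linked miRNAs rose, where 23.8% of all tested miRNAs did. With 75th percentile scaling, and without 12 h sample 1 or 3 or 48 h sample 5 or 6, 2 of the 3 were called, miR-199a-5p being lost. miR-210, the main target of hypoxia-inducible factor among miRNAs (chr7:141221407-141221428, minus strand), had log2 signals of 13.26 to 13.78 at 48 h (median 13.56), against 11.96, 12.09 and 12.41 at 12 h. It rose by 1.40 ± 0.14 (SE, limma adjusted p = 5.92e-05) on the left and changed by 0.56 on the right (limma adjusted p = 0.272), a difference of 0.84 that did not pass (limma adjusted p = 0.402). miR-103 rose by 1.28 ± 0.09 and by 1.15 on the right. miR-199a-5p rose by 1.14 ± 0.35, as above not called with 75th percentile scaling.

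The miR-17-92 cluster and its paralogs, which favour proliferation, had 6 of 13 tested members higher and none lower at 48 h (limma), with a median of 0.76. Over all tested miRNAs 23.8% were higher and 19.9% lower. With 75th percentile scaling 5 were higher, 4 were lower and the median was 0.56. At an unadjusted limma p under 0.05, 7 were higher and 2 lower. miR-17 rose by 0.97, miR-17* by 4.17, miR-20b by 1.74, miR-25 by 1.08, miR-92a by 0.76 and miR-93 by 1.40, of which miR-20b was not called with 75th percentile scaling. The 7 that did not pass included miR-19a (-1.75 ± 0.97), miR-20a (-1.16 ± 0.45) and miR-18a (0.76 ± 0.28). Without 12 h sample 2 or 3 or 48 h sample 6, 1 member was called lower.

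The let-7 family, which restrains growth in differentiated cells, moved the other way. All 9 tested members had negative changes, also with 75th percentile scaling, and 5 passed: let-7a, let-7d, let-7e, let-7f and miR-98. Without 48 h sample 3, 8 passed, and without any 1 of the 12 h samples 4 passed. Over all tested miRNAs 19.9% were lower. The median was -1.63 on the left and -1.11 on the right, where 3 passed. let-7d had log2 signals of 12.44 to 13.66 at 48 h (median 12.97), against 14.45, 14.47 and 14.50 at 12 h, and fell by 1.496 ± 0.23 (SE, limma adjusted p = 0.0008). let-7b, which differs from let-7a by G17A and G19A (positions from 1 at the 5′ end, let-7b base first), changed by -0.24 ± 0.10 and did not pass (limma adjusted p = 0.0797), although its samples did not overlap. Summed raw signal of the family made up 2.93 to 4.94% of each 48 h array and 8.64 to 9.48% of each 12 h sample.

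Several neighbouring miRNAs and close paralogs had unlike changes, although no difference between them was tested. On chromosome 17, within Spaca6, miR-99b (chr17:17830194-17830215), let-7e (chr17:17830366-17830387) and miR-125a-5p (chr17:17830817-17830840) lie on the plus strand within 1 short stretch. miR-99b had log2 signals of 14.02 to 14.36 at 48 h (median 14.15), against 12.44, 13.00 and 12.87 at 12 h, and rose by 1.39 ± 0.13 (limma adjusted p = 2.86e-05). let-7e had 5.42 to 12.49 at 48 h, against 14.002, 14.11 and 14.09 at 12 h, a change of -5.95 ± 1.79, which was lost without any 12 h sample (limma adjusted p 0.0683 to 0.073). miR-125a-5p fell by 2.03 ± 0.23 (limma adjusted p = 0.00012). The right carotid showed the same signs, at 1.10 for miR-99b, -5.43 for let-7e and -3.10 for miR-125a-5p.

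miR-99a and miR-100, printed above, share a seed and differ only by U16A (miR-99a base first). miR-99a was detected in 1 of 6 samples at 48 h, with log2 signals of 5.37 to 7.84, against 11.46, 12.33 and 12.20 at 12 h, a change of -6.14 ± 0.58 (limma adjusted p = 3.39e-05). miR-100 had 13.86 to 14.14 at 48 h, against 12.66, 12.77 and 12.79 at 12 h, and rose by 1.20. Sequences this close can share signal on an array, so the level of either is uncertain, yet the probes moved in opposite directions. miR-23a and miR-23b, which differ by U19A (miR-23a base first), stood at -4.43 ± 1.53 and -0.08 ± 0.04. miR-23a was detected in 4 of 6 samples at 48 h, with values of 6.18 to 13.06, and its call was lost without any 12 h sample or 48 h sample 2, 4 or 5 (limma adjusted p 0.0618 to 0.109). Its cluster partner on chromosome 8, miR-27a (chr8:84208727-84208747), changed by 0.03 ± 0.04.

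miR-15a and miR-16, which share a seed and a host transcript (Dleu2, chromosome 14), stood at -3.88 ± 0.59 (limma adjusted p = 0.000702) and 0.01 ± 0.14 (limma adjusted p = 0.959). miR-16 is also made from a second locus on chromosome 3. miR-221 and miR-222, adjacent on the X chromosome with a common seed, fell by 2.26 ± 0.74 and rose by 0.80 ± 0.24, the rise of miR-222 not being called with 75th percentile scaling. The first was lost without any 12 h sample or 48 h sample 5 (limma adjusted p 0.0503 to 0.12) and the second without 12 h sample 1 or 48 h sample 4 (limma adjusted p 0.0886 and 0.0508). miR-30b (0.89 ± 0.15, not called with 75th percentile scaling) and miR-30e (-3.49 ± 0.93) of the miR-30 family also had opposite signs, and miR-30e was lost without 12 h sample 2 or 3 (limma adjusted p 0.0646 and 0.0643).

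**Figure D4:**
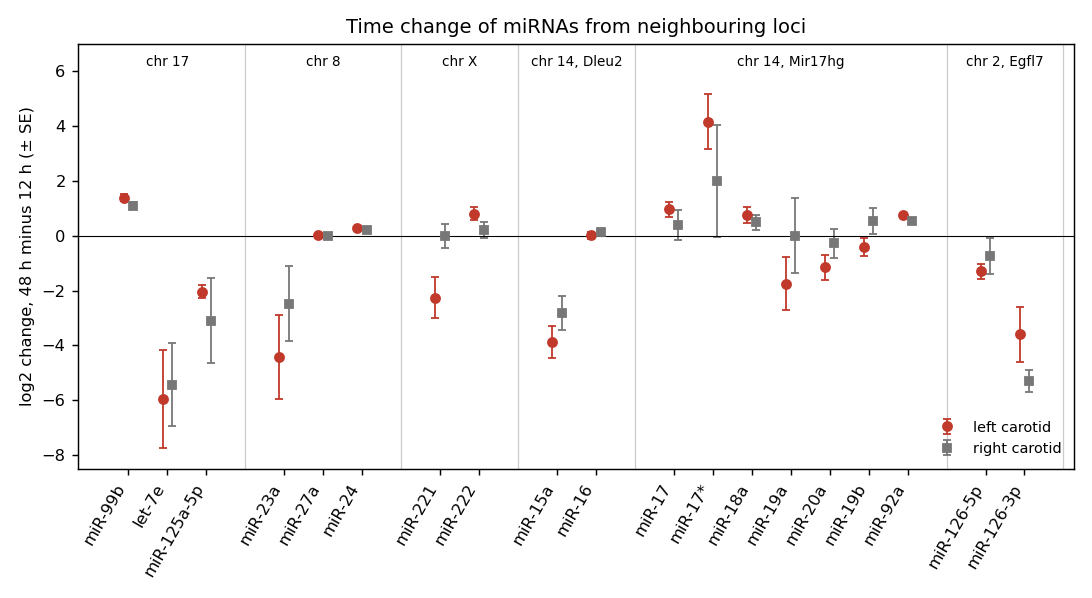
Points give the log2 change (48 h minus 12 h) ± SE of miRNAs from neighbouring loci, with the left carotid as red circles and the right carotid as grey squares; grey vertical lines part the loci. miR-99b rose in both arteries while let-7e and miR-125a-5p of the same locus were below 0, and miR-15a was below 0 beside miR-16 near 0.

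Detection changed in both directions. Of 655 miRNAs, 254 were detected in all 9 left samples and 120 in none. A total of 16 (2.44%) were detected in all 6 samples at 48 h and in none at 12 h, and 27 (4.12%) in all 3 samples at 12 h and in none at 48 h. Here a 12 h sample needed detection on both repeat arrays. With either repeat array enough, the counts were 11 and 28. With both arrays needed, the right carotid had 13 and 8 such miRNAs, of which 9 and 4 were the same as on the left. The 9 switched on at 48 h in both arteries were miR-133b, miR-183*, miR-196a*, miR-197, miR-21*, miR-294, miR-302c, miR-450a-3p and miR-466j, of which miR-133b, miR-183*, miR-21* and miR-466j were not called higher with 75th percentile scaling (miR-466j was called lower, -0.53). The 4 detected at 12 h alone in both were miR-295, miR-683, miR-742 and miR-878-3p.

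**Figure D5:**
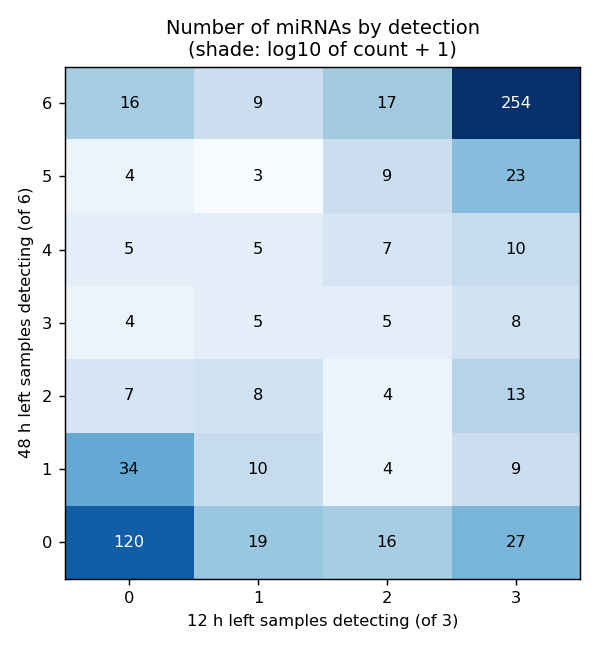
Cells count the 655 miRNAs by the number of left carotid samples that detected them at 48 h (vertical, of 6) and at 12 h (horizontal, of 3), with darker shades for larger counts. The largest counts are the 254 detected everywhere and the 120 detected nowhere, and the corners of full opposition hold 16 (only 48 h) and 27 (only 12 h).

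Apart from miR-200c and miR-21*, the brightest of the 16 were miR-760, miR-302c, miR-197 and miR-490. As given above, miR-490 was detected on some single arrays at 12 h. miR-760 had log2 signals of 8.75 to 11.06 at 48 h, against 5.57, 5.62 and 5.75 at 12 h, and was at least 10.3-fold higher (limma adjusted p = 0.000118). miR-302c, of a pluripotency cluster within Larp7, was at least 7.15-fold higher and miR-197 at least 6.15-fold higher. On the right, miR-197 and miR-302c were detected in 6 of 6 samples at 48 h and in 0 of 3 at 12 h.

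Of the 27, the brightest at 12 h were miR-683, miR-684, miR-1196, miR-1190, the let-7c-2*/let-7a* probe and miR-101a. miR-684 had log2 signals of 5.40 to 5.48 at 48 h (median 5.43), against 12.95, 13.02 and 12.69 at 12 h, and was at least 46.7-fold lower at 48 h. miR-683 was at least 71.1-fold lower, with 6.04 to 6.63 at 48 h against 13.56, 13.53 and 13.39 at 12 h, and miR-1196 at least 38.4-fold lower. All 3 were also called lower in the right carotid, where miR-683 was at least 39.1-fold and miR-684 at least 5.77-fold lower at 48 h. The list further held miR-204 (at least 9.96-fold lower) and miR-218 (at least 6.15-fold lower), with log2 signals under 6 in every 48 h sample.

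Percentile ranks within an array do not depend on scaling, but they mix a miRNA's level with its probe's response and are used here only to follow a probe between times. The median absolute rank shift was 9.57 points on the left and 6.56 on the right. Shifts above 25 points occurred in 97 miRNAs on the left, 35 up and 62 down, and in 69 on the right. The largest upward shift on the left was 53.4 points and the largest downward one -81.1 points, that of miR-684. Of the 20 top-ranked probes at each time, 7 were shared: miR-24, miR-21, miR-27a, miR-23b, let-7b, miR-708 and a probe derived from small RNA sequencing. The 13 of the 48 h list alone included miR-103, miR-25, miR-486, miR-223, miR-92a, miR-574-3p, miR-99b and miR-145. The 13 of the 12 h list alone included both strands of miR-126, let-7a, let-7c, let-7d, let-7f, let-7g, miR-125a-5p, miR-125b-5p and miR-26a.

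Among miRNAs detected on every left array, the largest rises without overlap, beside miR-712 and miR-486, included miR-193b (3.07 ± 0.43), miR-335-5p (2.93 ± 0.23), miR-92b (3.10 ± 0.58), miR-291a-3p (2.49 ± 0.26) and miR-128a:9.1 (2.46 ± 0.45). The separate probe named miR-128 changed by 0.76 and did not pass (limma adjusted p = 0.557), so the rise of miR-128a:9.1 rests on 1 probe. miR-335-5p lies within the imprinted gene Mest and had 9.99 to 10.31 at 48 h, against 7.04, 7.41 and 7.42 at 12 h. miR-324-3p rose by 2.06, miR-423-3p by 1.82 and miR-574-3p by 1.58. miR-423-3p had log2 signals of 13.59 to 14.02 at 48 h (median 13.71), against 11.84, 12.04 and 11.93 at 12 h (limma adjusted p = 3.9e-06), and rose by 0.94 on the right. miR-7b (2.30), miR-667 (2.22) and miR-615-5p (2.19) belong to the same set and were not called with 75th percentile scaling. miR-667 was also lost without 12 h sample 3 or any 48 h sample but sample 3 (limma adjusted p 0.0502 to 0.124).

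The largest falls of that kind were in miR-703 (-4.85 ± 0.29), miR-374 (-4.12 ± 0.80), miR-126-3p, miR-1186 (-3.45 ± 0.89), miR-706 (-3.30 ± 1.12), miR-29c (-3.15 ± 0.56), miR-494 (-2.65 ± 0.32), miR-532-3p (-2.51 ± 0.33), miR-327 (-2.50 ± 0.41) and miR-132 (-2.28 ± 0.51). miR-29c, a repressor of collagens and other matrix genes, had 9.65 to 12.18 at 48 h (median 9.88), against 13.40, 13.58 and 13.30 at 12 h. Its relatives miR-29a (-2.12 ± 1.63) and miR-29b (-2.42 ± 1.37) did not pass, whereas all 3 were called lower without 48 h sample 3. miR-706 was lost without any 12 h sample or 48 h sample 5 or 6 (limma adjusted p 0.0523 to 0.106).

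miR-330* rose by 4.80 ± 0.75 and miR-742* by 4.603 ± 0.96 on the left. miR-742* had 12.07 to 13.19 at 48 h (median 12.78), against 5.36, 8.22 and 10.69 at 12 h, while the right carotid averaged 12.42 ± 0.67 at 48 h (SD, n = 6) and 12.10 ± 0.26 at 12 h (SD, n = 3). The left 12 h samples were thus the ones that stood low, and the difference of the changes, 4.29, did not pass (limma adjusted p = 0.0948). miR-132, which is induced by CREB, fell by 2.28 ± 0.51 on the left and changed by 0.26 on the right, and miR-190 fell by 2.44 ± 0.37 on the left and changed by -0.34 on the right. The differences of -2.54 and -2.09 did not pass either (limma adjusted p = 0.31 and 0.0839).

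In the Dlk1-Dio3 cluster 6 of 43 tested members rose and 8 fell (median 0.44, and 0.16 to 0.23 without 48 h sample 1, 2, 3 or 4), where 43.7% of all tested miRNAs were called, and with 75th percentile scaling 2 rose and 14 fell (median -0.84). Without 12 h sample 3, 4 fell. miR-127 (1.82 ± 0.29) and miR-770-5p (1.36 ± 0.33) rose on all 3 scales, and miR-376b* and miR-541 were at least 14.6-fold and 5.44-fold lower. In the Sfmbt2 cluster, 4 of 27 rose and 6 fell, and with 75th percentile scaling none of the 27 was called higher and 8 were called lower (limma). Leaving out single samples gave as few as 1 rise (without 12 h sample 3 or 48 h sample 1, 4 or 5; 2 without 12 h sample 2 or 48 h sample 3) and 3 falls (without 12 h sample 1 or 2). In the miR-290 to miR-295 cluster 3 of 10 rose (miR-291a-3p, miR-294 and miR-293*, of which miR-293* was at -0.59 with 75th percentile scaling and lost without any left sample but 48 h sample 2, limma adjusted p 0.0586 to 0.153) and 3 fell (miR-291b-5p, miR-291b-3p and miR-295). miR-291b-3p was detected in 2 of 3 samples at 12 h and could not be tested without sample 1 or 3. Star strands, the less abundant arm of a hairpin, had 19 of 73 higher and 8 lower, which became 6 higher and 17 lower with 75th percentile scaling, and 12 were higher without 12 h sample 2.

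The called miRNAs also differed in base composition. The median GC content of the target sequence was 52.2% for the 109 that were higher, 43.5% for the 91 that were lower and 47.6% for the 258 not called. The quartiles overlapped, at 45.5 to 61.9% for the higher and 36.4 to 50% for the lower set. Of those printed above, miR-423-3p (65.2% GC, higher) and miR-101a (33.3% GC, lower) lie beyond the quartiles of their sets. miR-223 (40.9% GC) was higher and miR-291b-5p (59.1% GC) lower, against the order of the medians. Median length was 22 bases in all 3 sets. The part of base composition in the changes was not tested.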

How the data were processed

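The deposited tables, 1 per time, hold 2 columns per array, the mean bead intensity and the detection p-value of each probe, which the authors exported with GenomeStudio (version 2010.2), per the submitters' processing notes; any background subtraction before export is not stated there. All 655 probes were joined on their identifier. At 12 h, arrays 1 and 4, 2 and 5, and 3 and 6 had rank correlations above 0.98 and were averaged as 1 sample each. The 24 arrays were background-corrected from the detection p-values and quantile-normalized together with neqc (limma 3.58.1, R 4.3.3, offset 16). Values are log2.

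miRNAs entered a test when 3 or more arrays of either group detected them (detection p under 0.05). limma models (lmFit, then eBayes with trend) gave two-sided p-values, which were adjusted by Benjamini and Hochberg's method across every miRNA tested and called under 0.05. The left fit held 9 samples and the test of left minus right change 18, with left and right samples treated as independent. A 12 h sample counted as detecting a miRNA if both repeat arrays did. Where a miRNA was undetected on every array of 1 time, "at least N-fold" sets the bright mean against the higher of the lowest detected signal and the probe's own signal. The precision is limited by the number of arrays.

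The members and lists, and the rule for named miRNAs, were chosen with earlier results of these data known. The rule names the 10 largest rises and falls past the threshold that were detected on every left array and did not overlap, the 6 brightest switched on or off in each direction, the 5 smallest interaction p-values in each direction, a fixed set of 40, and list members past the threshold. Members that did not pass are given as values to show their lists. The Dlk1-Dio3 list was defined by name range, and miR-378, which lies elsewhere, was removed from it. Of 655 probes, 493 matched a RefSeq mature sequence, as did 54 of the 73 named miRNAs. The authors' own processed intensity values served as an alternative.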

Additional observations from a re-analysis of the deposited data

Results flagged for a closer look

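Among 73 named miRNAs, 12 had a left 48 h sample standing apart from the other 5 by Dixon's criterion. Chance gives about 1 such sample in 20 groups.

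Samples that stood low were as follows, in log2 signal. In sample 3, miR-30c read 5.47 (others 12.81 to 13.57) and miR-29b 5.91 (others 10.37 to 12.80). In sample 1, miR-146b read 6.45 (others 10.91 to 12.34), miR-615-5p 8.38 (others 9.24 to 9.74), miR-335-5p 9.99 (others 10.21 to 10.31) and miR-324-3p 13.17 (others 13.64 to 13.86). In sample 2, miR-706 read 7.08 (others 11.47 to 12.35) and miR-712 12.73 (others 13.24 to 13.51).

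Samples that stood high were sample 6 for miR-1, at 9.25 (others 5.38 to 5.41), and for miR-374, at 11.96 (others 8.32 to 8.67), sample 2 for miR-29c, at 12.18 (others 9.65 to 10.33), and sample 3 for miR-129-3p, at 5.67 (others 5.45 to 5.52). All 6 values of miR-129-3p were below detection and have no order.

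miR-291b-5p is the miRNA whose time change differed between the arteries by a test of the difference itself, with a fitted difference of -5.19 for left minus right, a size set partly by background because only the left 12 h samples were above detection.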

How the results depend on the processing

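With the replicate number as a block, the left count fell to 119 (64 higher, 55 lower). Deviations of same-numbered samples of the 2 times correlated at 0.122, 0.044 and -0.153. Differently numbered samples were not compared, so these values cannot decide whether the numbers pair the samples. Restricting the test to miRNAs detected on every array gave 109 (73 higher, 36 lower), fewer being tested. Leaving out single samples gave 158 to 202, and every other alternative stayed within 1.5 times of 200: 161 with the authors' processed values, 234 with no detection filter and 271 with every array a sample. The count for left minus right change was 4 with 12 h arrays 1 to 3, 2 with 75th percentile scaling, 2 with no detection filter, 2 with no intensity trend, 13 with every array a sample, and 0 by limma among miRNAs detected on every array, where miR-291b-5p is not tested; single samples left out gave 1 to 9. The difference in detected miRNAs was -33.7 with every array a sample (exact permutation p = 0.00649), and -19.3 to -32.8 with single samples left out. Every array a sample counts the 12 h repeat arrays as separate samples, so its p-value and counts, here and above, overstate the evidence. The count of miRNAs detected at only 1 time, 43, ran from 39 to 53. The median rank shift of 9.57 points ran from 9.07 to 9.73, chosen after the data were seen.

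Some changes near 0 that did not pass changed sign. miR-142-3p was at -1.70 with 75th percentile scaling, -0.0418 with no background correction, -0.0765 with percentile ranks (in points) and -0.0765 with the authors' processed values. With 75th percentile scaling miR-143 was at -0.0941, miR-16 at -0.39, miR-199a-3p at -0.11 and miR-872* at -0.69. miR-16 was at -0.036 with 12 h arrays 4 to 6 and -0.0699 with the replicate block. With single samples left out, miR-142-3p ran from -0.48 to 0.713, miR-143 from -0.0216 to 0.344, miR-16 from -0.048 to 0.0877, miR-199a-3p from -0.0678 to 0.434 and miR-872* from -0.305 to 0.621. The cause was not tested.

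Low signal limits the detection changes: signals under the detection limit have no order, and the dimmer 48 h arrays cannot be told apart from time.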
